A study of Spodoptera frugiperda with 3 samples.

Results

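Single unigenes that stood higher in both transfected libraries than in normal Sf9 cells are described here. A unigene is a transcript sequence assembled from the reads without a genome. Names that begin with Unigene mark those that the assembly left single, and names that begin with CL mark contigs that it grouped into clusters. The members were chosen by the deposited values, after adding 1 FPKM (the fragments of a unigene scaled to its length and to all mapped fragments of the library) to each library. A member had a log2 ratio to Sf9 of at least 1 in both transfected libraries, and at least 50 fragments in one or both of them. By this rule 104 of 42041 unigenes were members, and all 104 are accounted for below. Among the 13805 single unigenes with at least 50 fragments in either transfected library, the members were 0.753%.

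The study asked what the small nucleolar RNA Sf-15 does in Sf9, an established cell line from the ovary of the fall armyworm *Spodoptera frugiperda*, here at passages 15 to 18. The libraries came from normal Sf9 cells that were not transfected (Sf9), from cells given a gapmer antisense oligonucleotide against Sf-15 (ASO), and from cells given a plasmid that transcribes Sf-15 and EGFP from *actinA3* promoters (Sf-15). The sample labels write Bm-15, the silkworm homolog, in place of Sf-15. Each of the 3 conditions had 1 library and no replicate, so the spread between cultures is unknown and every interval given here covers counting error only. Both transfected cultures also received the lipid reagent, and no library of cells given a control oligonucleotide or an empty plasmid was analysed here. A response to transfection, a response to the Sf-15 level and a difference in the Sf9 culture cannot be told apart.

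C/D box snoRNAs guide the 2′-*O*-methylation of ribosomal RNA in the nucleolus, and Sf-15 belongs to this class. A gapmer oligonucleotide pairs with its target in the nucleus and directs RNase H to cut it. The oligonucleotide was designed to lower Sf-15 and the plasmid to raise it, so a transcript that is higher in both libraries does not follow that design in a single direction. The level of Sf-15 itself was not analysed here. The deposited tables pair the unigenes with neither gene names nor sequences, and 0 names matched the RefSeq gene table of *S. frugiperda*. The members are therefore described here by their assembly name, length and fragments, and no role is given to any of them.

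The libraries held 19.6 M (mega) fragments for Sf9, 19.7 M for ASO and 18.0 M for Sf-15. The unigenes with a fragment had medians of 37, 41 and 30 fragments, respectively. FPKM is scaled to all mapped fragments, and 4 unigenes each took over 1% of a library. Scaling by edgeR's TMM method moved all log2 ratios to Sf9 by 0.25 in Sf-15 and by -0.03 in ASO, and those of Sf-15 to ASO by 0.28. With TMM scaling 133 single unigenes met the rule, and these included 97 of the 104 members. Leaving the 4 unigenes out of the library totals moved the log2 ratios to Sf9 by 0.2 in ASO and by 0.32 in Sf-15. With these totals 182 single unigenes met the rule, among them all 104 members.

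Summed over their fragments, the members made up 0.203% of the Sf9 library, 1.79% of ASO and 1.57% of Sf-15. Unigene21105 (1367 nt) held 39.8% of the members' fragments in the Sf9 library, 76.3% of those in ASO and 71.3% of those in Sf-15. It had 15788 fragments in Sf9, 270001 with the ASO and 201206 with the Sf-15 plasmid. Its share of the library was 0.0806% in Sf9 (exact 95% confidence interval 0.07936% to 0.08187%), 1.37% in ASO (1.362% to 1.373%) and 1.12% in Sf-15 (1.112% to 1.122%). Its level was 17.0-fold higher in ASO and 13.9-fold higher in Sf-15 than in Sf9. Without it the summed shares were 0.122% for Sf9, 0.424% for ASO and 0.449% for Sf-15. Each member was chosen as higher in both, so the rule fixed that this sum is higher too.

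**Figure D1:**
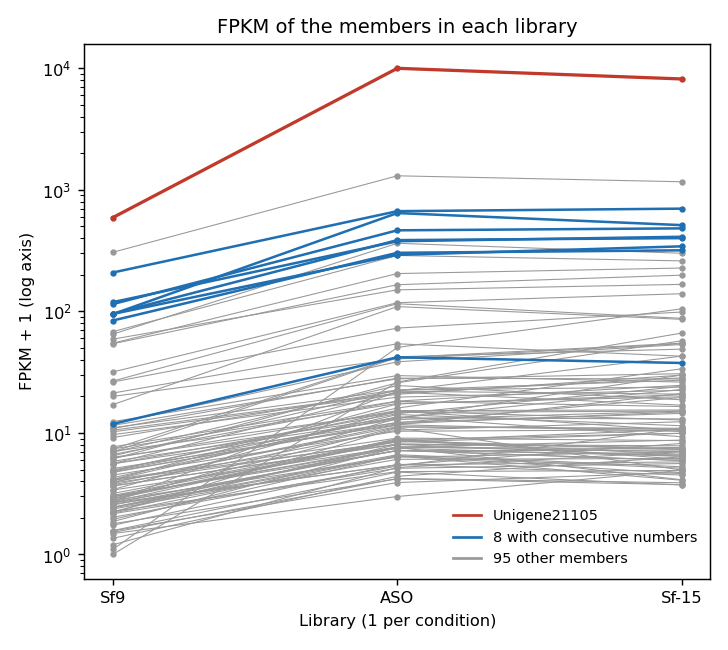
FPKM of the 104 members in each library, with 1 added, on a log axis; each line is a unigene and each point a single library. Unigene21105 (red) stands at 10004 FPKM in ASO and 8170 in Sf-15. The 8 members with consecutive assembly numbers (blue) run nearly level between ASO and Sf-15 in FPKM, which uses library totals.

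The members varied widely in level. Their FPKM in Sf9 ran from 0 to 589.67, with a median of 3.39. In ASO it ran from 2.00 to 10004, with a median of 12.3, and in Sf-15 from 2.72 to 8170.35, with a median of 13.99. By their level in Sf9, 12 members were below 1 FPKM, 67 from 1 to below 10, 20 from 10 to below 100, and 5 at 100 or more. Among single unigenes with at least 50 fragments in either transfected library, these were 12.5% of 96, 1.14% of 5895, 0.287% of 6977 and 0.597% of 837. The 12 lowest had a median fold over Sf9 of 6.39 in ASO and 6.11 in Sf-15, on the scale of FPKM without an addition. The 67 above them had median folds of 3.5 and 3.26. In the next band the median folds were 3.55 and 3.77, and in the 5 most abundant they were 4.08 and 3.82. From 1 FPKM upwards the median fold thus stayed between 3.26 and 4.08 in every band. The level in Sf9 enters the rule. Because 1 FPKM is added, a unigene with a lower level in Sf9 needs a larger fold to be a member. The higher folds below 1 FPKM are thus partly set by the rule. How much of them, and of the higher share of members there, comes from the rule was not tested.

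On the scale of FPKM with 1 added, the log2 ratio of ASO to Sf9 ran over the members from 1.01 to 5.52, with a median of 1.5. The ratio of Sf-15 to Sf9 ran from 1.01 to 6.58, with a median of 1.49. These values chose the members and are given without a test. Over all single unigenes with the same minimum of fragments, the medians were -0.04 and -0.26. A ratio of at least 1 in ASO was met by 3.53% of these unigenes, and a ratio of at least 1 in Sf-15 by 1.12%. The members were 21.3% of the former and 67.5% of the latter. Both ratios were at least 2 for 15 members, the smaller of both was between 1.5 and 2 for 21, and it was below 1.5 for 68.

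The 6 members with the largest smaller ratio began from very different levels in Sf9. Unigene13912 (1545 nt) had 3 fragments in Sf9, 1511 with the ASO and 2898 with the Sf-15 plasmid. Without an addition, its log2 ratio to Sf9 had an exact 95% interval of 7.41 to 11.24 in ASO and 8.49 to 12.32 in Sf-15. It was close to absent from the Sf9 library and well covered in both others.

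Unigene24276 (263 nt) had 0 fragments in Sf9, 131 with the ASO and 310 with the Sf-15 plasmid. Against a floor of 3 fragments in the Sf9 library, it was at least 43.3-fold higher in ASO and at least 112-fold higher in Sf-15. It was the only member without a fragment in Sf9. Unigene3602 (507 nt), the third member with 3 fragments or fewer there, had 2 fragments in Sf9, 42 with the ASO and 55 with the Sf-15 plasmid. This unigene was named after its values were seen.

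Unigene12898 (833 nt) had 28 fragments in Sf9, 346 with the ASO and 298 with the Sf-15 plasmid. Its log2 ratio to Sf9 was 3.62 (exact 95% interval 3.06 to 4.23) in ASO and 3.53 (2.97 to 4.15) in Sf-15. Unigene986 (290 nt) had 34, 233 and 281 fragments in Sf9, ASO and Sf-15, and log2 ratios of 2.77 (2.24 to 3.33) and 3.17 (2.65 to 3.73). Unigene15757 (337 nt) had 42, 275 and 291 fragments in the same order, with log2 ratios of 2.70 (2.23 to 3.20) and 2.91 (2.44 to 3.42). The direct log2 ratio of Sf-15 to ASO was -0.08 (exact 95% interval -0.31 to 0.14) for Unigene12898, 0.40 (0.15 to 0.66) for Unigene986 and 0.21 (-0.03 to 0.46) for Unigene15757. With these library totals the interval lay above 0 for Unigene986 alone of these 3. With TMM scaling the ratios were higher, at 0.20 for Unigene12898, 0.69 for Unigene986 and 0.50 for Unigene15757.

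The members with the most fragments after Unigene21105 differed from Sf9 by less. Unigene17259 (1113 nt) had 4528 fragments in Sf9, 14656 with the ASO and 14027 with the Sf-15 plasmid, or 3.21-fold more per length in ASO and 3.37-fold more in Sf-15 than in Sf9. Unigene11556 (3413 nt) had 3883, 10071 and 10199 fragments, or 2.57-fold and 2.86-fold more. Unigene20870 (298 nt) had 1782, 7673 and 6253 fragments, or 4.27-fold and 3.82-fold more. At 305 FPKM, it was the second most abundant member in Sf9. In each of these unigenes the fold in ASO and the fold in Sf-15 were close in size with library totals.

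A group of 8 members carried consecutive assembly numbers, from Unigene17253 to Unigene17260. The group was picked out after its values were seen, and the tables do not say how the assembly gave out the numbers. Together the 8 unigenes, of 6701 nt in all and 237 to 2597 nt each, had 10861 fragments in Sf9, 39607 with the ASO and 37147 with the Sf-15 plasmid. Their share of the library was 0.0555% in Sf9 (exact 95% confidence interval 0.0544% to 0.0565%), 0.201% in ASO (0.199% to 0.203%) and 0.206% in Sf-15 (0.204% to 0.208%). Whether some of these fragments were counted for more than a single unigene is not known.

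Within the group, the fold over Sf9 ran from 3.09 to 6.85 in ASO, with a median of 3.71, and from 3.37 to 5.45 in Sf-15, with a median of 3.72. Unigene17260 (237 nt), the last in number, had the largest fold in both. It had 436 fragments in Sf9, 3011 with the ASO and 2184 with the Sf-15 plasmid. The FPKM in Sf9 ran from 83.1 to 207.7 in the group apart from Unigene17253 (2597 nt), which stood at 10.9. That unigene had 552, 2100 and 1714 fragments in Sf9, ASO and Sf-15, so its folds of 3.77 and 3.38 lay within the range of the others at a lower level per length. The other unigenes of the group were Unigene17254 (782, 3213 and 3042 fragments), Unigene17255 (1746, 7158 and 6782), Unigene17256 (526, 1637 and 1756), Unigene17257 (1274, 4100 and 4072) and Unigene17258 (1017, 3732 and 3570).

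The unigenes numbered just before and after the group had ratios nearer 0 with 1 FPKM added. Of the 20 numbers within 10 of either end, 19 were listed in the tables, and 9 of these had at least 50 fragments in ASO or Sf-15. Over the 19, the log2 ratios to Sf9 with 1 FPKM added ran from -0.40 to 0.55 in ASO and from -0.49 to 0.21 in Sf-15. Within the group the ratios ran from 1.62 to 2.76 in ASO and from 1.67 to 2.43 in Sf-15, and these unigenes were chosen for ratios of at least 1. Under TMM scaling all 8 still met the rule. Only 1 other pair of members had consecutive numbers, Unigene12898 and Unigene12899, and the latter (1074 nt) had 36 fragments in Sf9, 169 with the ASO and 98 with the Sf-15 plasmid.

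**Figure D2:**
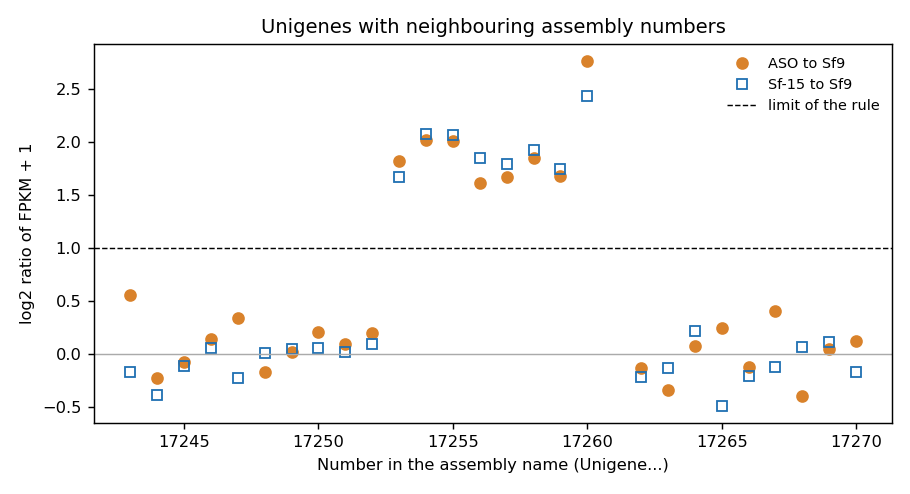
Log2 ratio of FPKM, with 1 added, of ASO to Sf9 (filled circles) and of Sf-15 to Sf9 (open squares) for single unigenes by the number in their assembly name; each point is from a single pair of libraries. The 8 consecutive members lie between 1.62 and 2.76, above the dashed limit of 1, and the 19 neighbours between -0.49 and 0.55.

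The libraries of the transfected cells were compared directly, since the rule does not set which of them is higher. The fragments of each unigene were set against the library totals in an exact binomial test (two-sided), and p was adjusted by Benjamini-Hochberg over the 42002 unigenes found in ASO or Sf-15. A unigene was called when its log2 ratio was at least 1 in size at an adjusted p of at most 0.001. The test compares these libraries and not the conditions. The limits on both ratios to Sf9 also bear on this ratio, because unigenes that passed in ASO and fell short in Sf-15 were left out. The calls and directions of the members are therefore a description, and no p is given for them.

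Sf-15 stood higher than ASO by the call rule for 6 of the 104 members and lower for 1. Over all unigenes tested, 0.21% were called higher and 2.36% lower, and over the single unigenes with the same minimum of fragments 0.348% and 4.61%. The median log2 ratio of Sf-15 to ASO was 0.04 over the members, -0.22 over those single unigenes and -0.27 over all unigenes with fragments in both libraries. The ratio was above 0 for 57 members and below 0 for 47, or above 0 for 54.8% of the members and 25.2% of the single unigenes with the same minimum.

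These values use library totals and depend on the scaling. With TMM scaling 11 members were called higher and 0 lower, against 0.797% and 1.27% of the single unigenes with the same minimum and 0.49% and 0.624% of all unigenes tested. Median-of-ratios scaling also gave 11 and 0 members, and the shares of other unigenes were not counted with it. The median log2 ratio of Sf-15 to ASO with TMM scaling was 0.33 over the members and 0.06 over the single unigenes, and the ratio was above 0 for 81 members (77.9%) and for 55.8% of the single unigenes.

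Among the 6 higher in Sf-15 with library totals were Unigene24276, with a log2 ratio of Sf-15 to ASO of 1.37 (exact 95% interval 1.08 to 1.68), and Unigene13912, with 1.07 (0.98 to 1.16). Their fragments are given above. Unigene16908 (291 nt) had 10 fragments in Sf9, 70 with the ASO and 152 with the Sf-15 plasmid, a ratio of 1.25 (0.83 to 1.68). Unigene7889 (1750 nt) had 35, 150 and 312 fragments in Sf9, ASO and Sf-15, a ratio of 1.19 (0.90 to 1.48). Unigene1773 (489 nt) had 49, 240 and 496 fragments in the same order, a ratio of 1.18 (0.95 to 1.41). The last of the 6 was Unigene20127 (617 nt), named after its values were seen, with 47, 183 and 364 fragments and a ratio of 1.12 (0.86 to 1.39). With edgeR's exact test, 5 of the 6 were called at an assumed coefficient of variation of 0.1 between cultures, and 0 at 0.2. The shares of all unigenes called at these settings were not counted, so neither number is read as a trait of the members.

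The member lower in Sf-15 was Unigene22511 (1710 nt), with 29 fragments in Sf9, 223 with the ASO and 96 with the Sf-15 plasmid. Its log2 ratio of Sf-15 to ASO was -1.08 (exact 95% interval -1.44 to -0.73). With TMM scaling the ratio was -0.80 and the call was lost. Unigene12365 (253 nt), named after its values were seen, had 6, 50 and 18 fragments in Sf9, ASO and Sf-15 and a ratio of -1.34 (-2.21 to -0.54), and missed the call by its adjusted p.

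The other 97 members were not called in either direction, which does not show that they were level. With library totals, the log2 ratio of Sf-15 to ASO had an exact 95% interval wholly between -1 and 1 for 81 of 104 members. For these a difference of 2-fold or more was outside the counting interval. The interval lay above 0 for 31 of the 104 members, below 0 for 21, and included 0 for 52. TMM scaling moved every such ratio by 0.28, and these interval counts were not repeated with it. They were also not made over the single unigenes with the same minimum, so they are not read as a trait of the members. For Unigene21105 the ratio was -0.29 (-0.30 to -0.28), and with TMM scaling it was -0.01. In the group of 8 consecutive unigenes, the ratios with library totals ran from -0.33 to 0.23, with a median of 0.06. With TMM scaling, Unigene17255 of this group had a ratio of 0.34, Unigene17257 of 0.41 and Unigene17259 of 0.35.

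**Figure D3:**
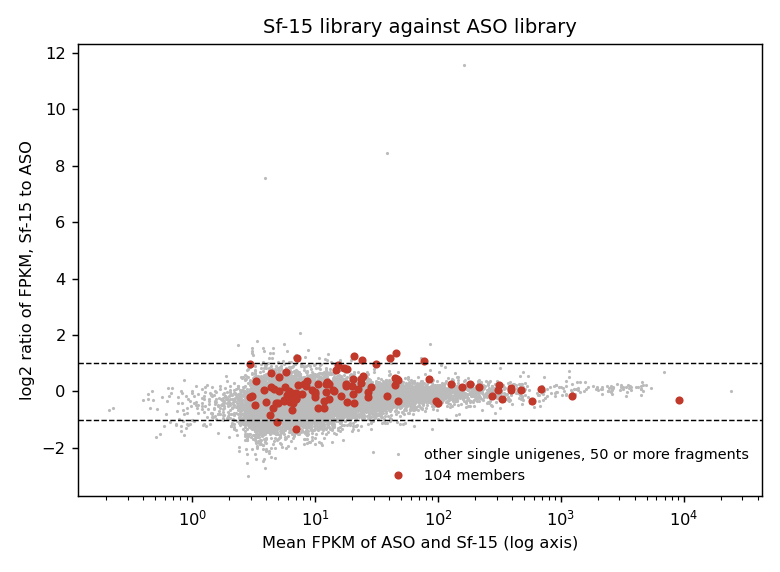
Log2 ratio of FPKM of Sf-15 to ASO against the mean FPKM of both libraries (log axis) for single unigenes with at least 50 fragments in either; points are unigenes and dashed lines mark 2-fold. The 104 members (red) lie between -1.34 and 1.37, and those above 100 FPKM lie within 2-fold; 2 other unigenes with 0 fragments in ASO are not drawn.

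The members had a lower median length than the single unigenes they were drawn from. Their length ran from 203 to 4115 nt with a median of 662 nt, and the 13805 single unigenes with the same minimum of fragments had a median of 900 nt. Shorter than 300 nt were 22.1% of the members and 5.26% of those unigenes. In this length class 23 of 726 unigenes (3.17%) were members, against 23 of 3289 (0.699%) from 300 to below 600 nt, 39 of 4823 (0.809%) from 600 to below 1200 nt, 15 of 3516 (0.427%) from 1200 to below 2400 nt, and 4 of 1451 (0.276%) at 2400 nt or more. The length enters the rule, since the same 50 fragments give a higher FPKM in a shorter unigene and the added 1 FPKM then weighs less. Its part in the difference was not tested.

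**Figure D4:**
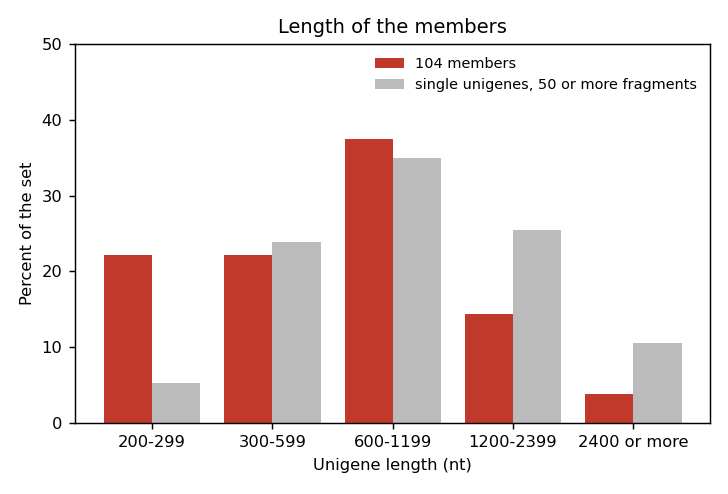
Share of the 104 members (red) and of the 13805 single unigenes with at least 50 fragments in ASO or Sf-15 (grey) in each class of unigene length in nt; bars start at 0 and each colour sums to all of its set. The class below 300 nt holds 22.1% of the members and 5.26% of the comparison set.

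By assembly number the members were spread over the whole range. The range was cut into 10 equal stretches. In the first 8 of these, between 0.524% and 1.06% of the single unigenes with at least 50 fragments were members, and the last 2 held 3 members among 210 such unigenes. Among the contigs of clusters, which the rule leaves out, 37 of 5445 with the same minimum of fragments met the same limits (0.68%). Of the 21 unigenes that the study lists for the apoptosis pathway, 15 were single and 14 of these had the minimum of fragments. None of the 14 was a member, against 0.753% of all single unigenes with this minimum. Over the 14, the log2 ratio to Sf9 with 1 FPKM added reached at most 0.99 in ASO and, rounded, -0.0 in Sf-15. The study chose the list on these libraries, as genes higher upon Sf-15 repression with the reverse pattern upon overexpression. That choice left no room for a member, so the absence of members was fixed by it and is not a result.

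Near the limit, membership turned on a few fragments. Just inside stood Unigene6270, with 114 fragments in Sf9, 301 with the ASO and 216 with the Sf-15 plasmid and a smaller ratio of 1.007 on the log2 scale with 1 FPKM added. Next were Unigene4452 with 159, 340 and 420 fragments (1.011) and Unigene13590 with 24, 63 and 50 (1.012). Just outside stood Unigene18436 with 10, 52 and 25 fragments (0.996), Unigene18159 with 19, 75 and 45 (0.995) and Unigene6165 with 18, 72 and 38 (0.994). Each of the 3 outside passed the limit in ASO and missed it in Sf-15. Without an addition, the exact 95% intervals of both log2 ratios to Sf9 lay above 1 for 67 of the 104 members. For the other 37, at least 1 interval reached to 1 or below. The values behind these ratios chose the members, and both ratios use the same Sf9 count. The counts of 67 and 37 are therefore a description and lend the members no support. The same count over the other single unigenes was not made. In Sf9, 10 members had fewer than 10 fragments, so the size of their ratios is the least certain.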

How the data were processed

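RNA of 3 cultures (Sf9, ASO and Sf-15, 1 library each) was sequenced on an Illumina HiSeq instrument, and unigenes were assembled by the authors (Trinity, TGICL, Phrap). The aligner and counting program are not given in the sources used here. The deposited raw fragments are counts without normalization and sum to the total in the header in 3 of 3 libraries. The deposited FPKM values were made by the authors from these counts, and recomputing them gave differences of at most 5e-05. The 3 tables were joined by unigene name, and 0 values differed between tables. The authors' log2 ratios, p-values, false discovery rates and directions were not used.

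Log2 ratios have exact (Clopper-Pearson) 95% intervals. Without replicates edgeR's quasi-likelihood test could not be fitted, so an exact binomial test was used. It was tried on simulated data with counting error only and with changes larger than those of the called members. The simulation therefore says nothing about spread between cultures. Members and lists were chosen with earlier results of these data known. The named unigenes were the 6 with the largest smaller ratio, the 5 with the most fragments, up to 4 called in each direction between ASO and Sf-15, the 4 highest in Sf9, and 3 on either side of the limit. Alternatives were other additions, fragment minimums and limits, TMM (edgeR 4.0.16) and median-of-ratios scaling (DESeq2 1.42.0), totals without the 4 largest unigenes, and an edgeR exact test at assumed coefficients of variation of 0.1, 0.2 and 0.4. Python 3.11.15, scipy 1.17.1 and R 4.3.3 were used.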

Additional observations from a re-analysis of the deposited data

How the results depend on the processing

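No paired analysis was possible because there are no replicates. The number of members (104) depended on the limits: adding 0.1 FPKM gave 173 and adding 5 FPKM gave 35, at least 10 fragments gave 291, no minimum gave 303, a log2 limit of 2 gave 15, and library totals without the unigenes above 1% of any library gave 182. At least 100 fragments (71), TMM scaling (133) and median-of-ratios scaling (131) stayed within 1.5 times.

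For the members called higher in Sf-15 than in ASO (6), TMM and median-of-ratios scaling gave 11 each, the adjusted p without a log2 limit gave 19, and an assumed coefficient of variation of 0.2 or 0.4 gave 0. For the members called lower (1), TMM scaling, median-of-ratios scaling, totals without the largest unigenes and assumed coefficients of 0.1, 0.2 and 0.4 gave 0, an adjusted p of at most 0.05 and the log2 limit alone gave 2, and the adjusted p alone gave 6. Shares over all unigenes were counted for library totals and TMM scaling only, so the calls at the other settings describe the members alone. The median log2 ratio of Sf-15 to ASO over the members was 0.04. It was 0.33 with either scaling, 0.17 with totals without the largest unigenes and -0.09 with at least 10 fragments. Its sign thus depends on these choices.

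The summed shares with at least 10 fragments were 1.81% in ASO, 1.59% in Sf-15 and 0.207% in Sf9. Without the unigenes above 1%, which include Unigene21105, they were 0.502%, 0.58% and 0.126%. Leaving out Unigene21105 alone, chosen after seeing the data, gave 0.424%, 0.449% and 0.122%.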
